A study of Mus musculus with 12 samples.

Results

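Bone morphogenetic protein (BMP) signalling in cultured mouse embryonic fibroblasts was described through 9 genes taken as a named list: the ligand genes Bmp2, Bmp4 and Bmp6, the antagonist gene Grem1, the target genes Id1, Id2 and Id3, and the inhibitory Smad genes Smad6 and Smad7. They are 9 of the 26305 gene identifiers counted in the series, and all 9 passed the filter on low counts that left 13499 genes for testing. The fibroblasts came from wild type male C57BL/6 E13.5 embryos and grew in medium with 10% serum under 3% oxygen and 5% carbon dioxide. RNA was sequenced from 12 cultures in 4 groups of 3: the vehicle DMSO for 96 h, DMSO for 240 h, 10 µM WM-2474 for 96 h and 10 µM WM-2474 for 240 h. The labels call WM-2474 an inactive control compound, so that both arms are controls, and no group without vehicle and none at an earlier time was analysed here. The series text calls the 3 cultures of a group biological replicates but does not say whether they came from separate embryos, so that p-values measure the spread between these cultures.

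BMP ligands are secreted dimers that bring type I and type II serine/threonine kinase receptors together at the cell surface, and the activated receptors phosphorylate Smad1, Smad5 and Smad9, which enter the nucleus with Smad4. The Id genes, whose proteins bind other helix-loop-helix factors and keep them from DNA, are among the genes that BMP signalling turns on most directly in many cell types. Secreted antagonists such as gremlin 1 hold ligands away from their receptors, and Smad6 and Smad7 act inside the cell as feedback inhibitors, Smad6 mainly on BMP receptors and Smad7 on BMP and TGF-beta receptors alike.

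Library totals were 7313007 to 26019167 counts, and a floor of 3 counts corresponded to 0.120 to 0.425 normalised counts per library (CPM, scaled to a common library size). All 10 fibroblast markers were detected in every library, and their summed level was 31395 to 37316 CPM at 96 h and 48124 to 52723 CPM at 240 h. Summed levels of other cell types' markers also differed between the times: the 8 endothelial markers reached 10.6 to 13.6 CPM at 96 h and 7.69 to 9.48 CPM at 240 h, with Tie1 at 0 in 11 libraries. The 6 cartilage and bone markers, mostly Col2a1, reached 113 to 203 CPM at 96 h and 75.0 to 125 CPM at 240 h. For the 4 adipocyte markers the sums were 1.71 to 2.46 and 0.217 to 0.815 CPM, with Lep at 0 in 12 libraries. Those of the 5 muscle markers, mostly Des, were 18.1 to 26.3 and 26.9 to 29.5 CPM. Ckm was at 0 in 12 libraries, and Myod1, Myog and Myh3 reached at most 0.266, 0.518 and 0.888 CPM. The 7 leukocyte markers reached 6.81 to 8.80 CPM at 96 h and 5.10 to 8.03 CPM at 240 h, and the 7 epithelial markers stayed within 0.566 to 1.63 CPM. Replicates 1 and 2 of DMSO at 240 h stood apart, with Xist at 5.24 and 4.48 CPM against at most 0.925 CPM in the other libraries. In the same replicates 1 and 2, 13 B lineage markers (without Ebf1, which ran at 24.1 to 37.1 CPM in all libraries) summed to 14.4 and 17.3 CPM. They summed to 1.36 CPM in replicate 3 of that group and to 0.683 to 3.35 CPM in the other groups. The share of counts from mitochondrially encoded genes was 1.48 to 1.60% at 96 h and 1.30 to 1.45% at 240 h, without overlap. The part of these other cells and of this share in the changes over time given below was not tested, and in bulk RNA fewer cells of a type and less RNA per cell cannot be told apart.

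The 9 genes covered a wide range of transcript levels. Per length of exon, as RPKM, which divides CPM by exon length in kilobases, Id3 stood first in DMSO at 96 h with 283 ± 14.9 RPKM (SD, n = 3), followed by Grem1 with 153 ± 19.0 RPKM and Id1 with 95.1 ± 5.04 RPKM. Id2 reached 46.2 ± 5.61 RPKM, Smad6 17.0 ± 0.633 RPKM, Smad7 13.1 ± 0.199 RPKM and Bmp4 13.0 ± 4.04 RPKM. The ligand genes Bmp6 and Bmp2 were the lowest, at 0.810 ± 0.280 and 0.489 ± 0.102 RPKM, from 11 to 43 and 4 to 26 counts per library over the 12 libraries. In that group Smad7 and Bmp4 were the only neighbours with overlapping libraries, though the highest Bmp4 library also reached the range of Smad6. At 240 h the order in both arms was Id3, Grem1, Id1, Id2, Smad7, Smad6, Bmp4, Bmp6 and Bmp2, with no overlap between neighbours, so that Smad6 and Smad7 had changed places. In WM-2474 at 96 h the libraries of Bmp4 overlapped those of Smad6 and of Smad7, while Smad6 stayed above Smad7.

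**Figure D1:**
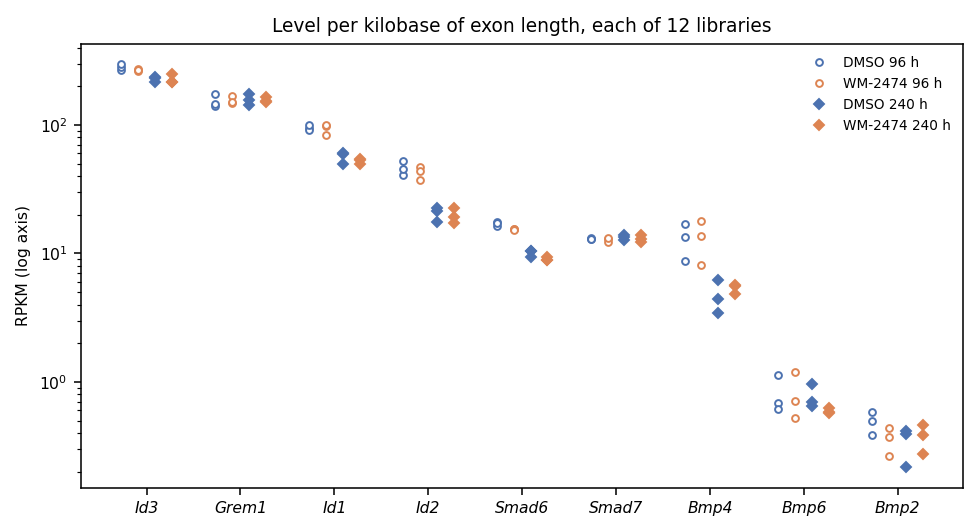
Levels of the 9 BMP genes per length of exon (RPKM, log axis) in each of the 12 libraries, by group. Id3 and Grem1 lie above 140 RPKM in all libraries, Bmp2 and Bmp6 below 1.19 RPKM, and Bmp4 and Smad6 sit lower at 240 h than at 96 h.

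Promoter sequences of Bmp4, Id2 and Smad6, which are 3 of the 5 genes that fell with time, are shown here beside that of the antagonist gene Grem1, which did not pass the test, as context for the values that follow. The RefSeq promoter table (GRCm38.p6) held 6 of the 9 genes, namely Bmp4, Bmp6, Grem1, Id2, Id3 and Smad6. In each window of 300 bases, 250 before and 50 after the transcript start, both strands were searched for GGCGCC, a GC-rich element described in BMP-responsive promoters, for GTCTAGAC, the palindrome that Smad proteins bind, and for the CCAAT box. The first was found in Grem1 and Id2, the palindrome in Smad6, and the box in Grem1, Id2 and Smad6. The only CCAAT match of Smad6 lay after the transcript start, at position 25. Bmp4, Bmp6 and Id3 held none of the 3. Of 32851 promoters, 11.9% held GGCGCC, 0.213% held GTCTAGAC and 37.4% held CCAAT. These matches describe letters in a window and are not evidence of binding. The sequences run 5′ to 3′ on the minus strand, with motif letters in capitals, and negative positions count back from the base before the transcript start. The Smad6 bases shown surround the start used by the promoter table. They lie inside the annotated gene, which spans chr9:63953076-64022085, and so are not sequence upstream of the gene.
Id2, the 89 bases outside annotated exons at chr12:25096254-25096342, with GGCGCC at -231: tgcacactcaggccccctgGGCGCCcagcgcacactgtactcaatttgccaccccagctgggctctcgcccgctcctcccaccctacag
Smad6, 30 bases at chr9:64022045-64022074 across the transcript start, with GTCTAGAC at -4: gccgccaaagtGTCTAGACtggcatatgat
Bmp4, 250 bases at chr14:46390670-46390919, with none of the motifs: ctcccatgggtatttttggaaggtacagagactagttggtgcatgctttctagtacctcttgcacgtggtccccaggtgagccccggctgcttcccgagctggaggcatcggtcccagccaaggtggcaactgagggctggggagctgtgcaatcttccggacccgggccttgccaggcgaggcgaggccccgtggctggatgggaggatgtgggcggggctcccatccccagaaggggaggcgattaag
Grem1, 250 bases at chr2:113758649-113758898, with GGCGCC at -78 and CCAAT at -69: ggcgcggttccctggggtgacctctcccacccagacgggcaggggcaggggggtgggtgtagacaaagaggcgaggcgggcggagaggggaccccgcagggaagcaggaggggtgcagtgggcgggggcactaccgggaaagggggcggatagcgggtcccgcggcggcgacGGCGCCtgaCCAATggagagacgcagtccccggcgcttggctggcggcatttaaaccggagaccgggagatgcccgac

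Between 96 h and 240 h in DMSO, 5 of the 9 genes fell and none rose: Bmp4, Id1, Id2, Id3 and Smad6. Of all 13499 genes tested, 17.3% fell and 17.5% rose (edgeR, adjusted p under 0.05). The same 5 genes fell in WM-2474, where 14.8% of all genes fell and 15.9% rose. The WM-2474 and DMSO libraries behind these changes are separate, but the arms are not independent repeats. Deviations of same-numbered libraries from their group means correlated between the arms at 96 h (0.337, 0.258 and 0.204). The estimate of spread was also shared by all libraries. The median log2 fold change of the 9 genes was -0.42 in DMSO and -0.46 in WM-2474, beside medians of -0.01 and 0.00 over all genes tested. The same 5 genes had libraries at 240 h all below those at 96 h in both arms, which held for 22.8% of all genes in DMSO and 21.2% in WM-2474. Scaling by library totals in place of TMM factors moved the all-gene medians to -0.13 and -0.14 and turned the split of calls from 2364 higher and 2330 lower to 1190 and 4381 in DMSO, and from 2147 and 1999 to 1097 and 4391 in WM-2474. Under that scaling 5 of the 9 genes fell in each arm.

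**Figure D2:**
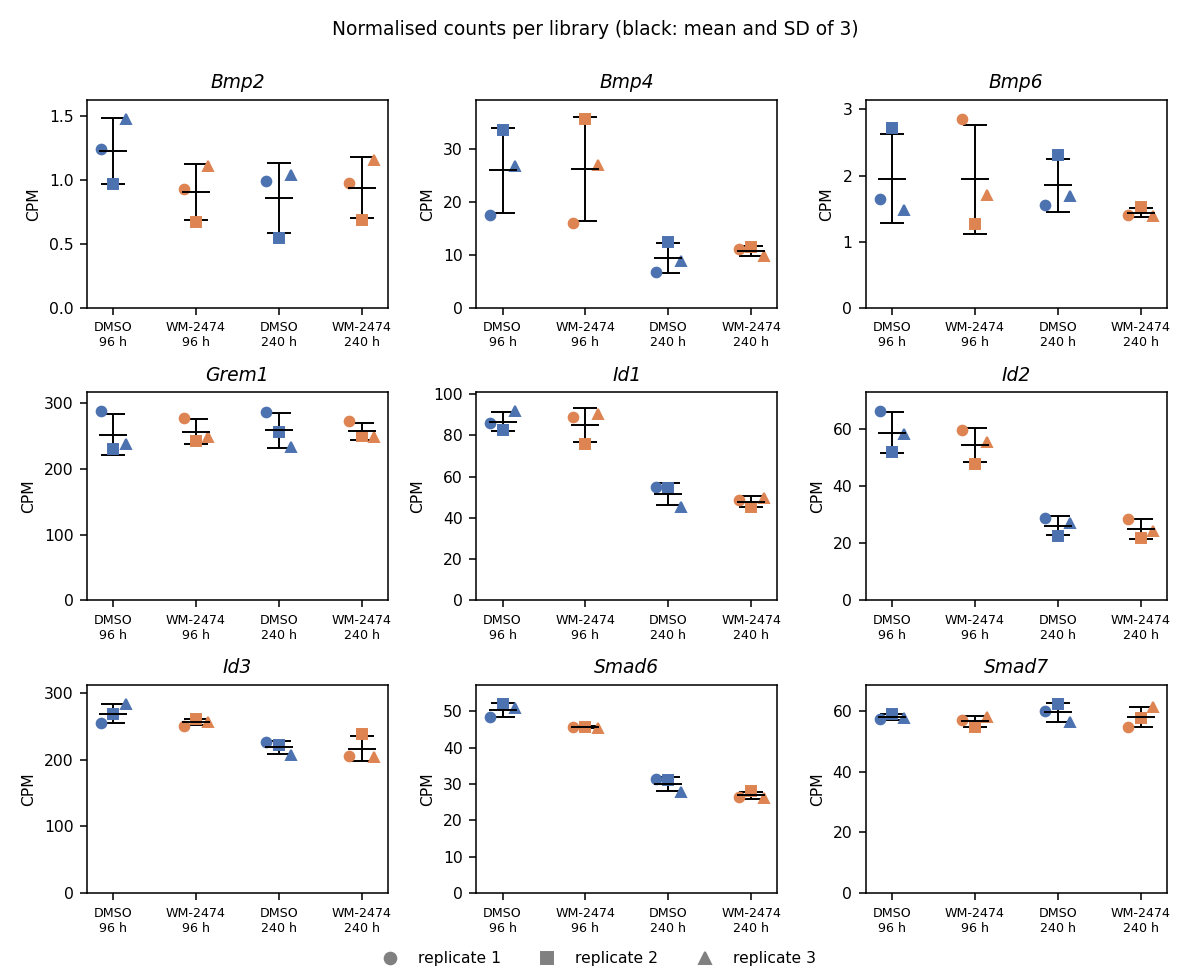
Level of each of the 9 genes in CPM (y axis from 0, its own scale for each gene) in the 12 libraries, with group means and standard deviations of 3 libraries. Bmp4, Id1, Id2, Id3 and Smad6 lie lower at 240 h than at 96 h in both arms with no overlap, while Grem1 and Smad7 overlap.

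Among the ligand genes, Bmp4 (gene ID 12159, chr14:46383525-46390669, GRCm38.p6) encodes the ligand with the highest level here. Its level in DMSO was 17.5, 33.6 and 26.8 CPM in replicates 1, 2 and 3 at 96 h and 6.80, 12.4 and 8.87 CPM at 240 h. In WM-2474 it was 16.1, 35.7 and 27.1 CPM at 96 h and 11.1, 11.4 and 9.71 CPM at 240 h. Every library at 240 h lay below every library at 96 h of the same arm, and the 3 libraries of a group spread widely except in WM-2474 at 240 h. At 240 h Bmp4 stood at 36.2% of its level at 96 h in DMSO, a log2 fold change of -1.47 ± 0.38 (SE; 95% interval -2.33 to -0.60; edgeR adjusted p = 0.0164). In WM-2474 it stood at 41.7%, a log2 fold change of -1.26 ± 0.37 (-2.12 to -0.41; edgeR adjusted p = 0.0335). The DMSO call was lost without DMSO 240 h replicate 3 (adjusted p = 0.0842) and without replicates 1 and 2 of that group together (adjusted p = 0.0997), with log2 fold changes of -1.41 and -1.52. The WM-2474 call was lost without any 1 of WM-2474 96 h replicates 2 and 3, WM-2474 240 h replicates 1, 2 and 3 and DMSO 240 h replicate 3, without replicates 1 and 2 of DMSO at 240 h together, and with only the libraries compared, with adjusted p of 0.0507 to 0.0950 and log2 fold changes of -1.32 to -0.98.

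Bmp2 (gene ID 12156, chr2:133552159-133562896), whose product can pair with or stand in for BMP4, was near the limit of these libraries. In DMSO it measured 1.24, 0.967 and 1.48 CPM at 96 h and 0.991, 0.543 and 1.04 CPM at 240 h. In WM-2474 it measured 0.931, 0.672 and 1.11 CPM at 96 h and 0.976, 0.686 and 1.16 CPM at 240 h. The groups overlapped, and the log2 fold changes of -0.42 ± 0.33 (edgeR adjusted p = 0.358) and 0.01 ± 0.38 (adjusted p = 0.994) did not pass the test. Their 95% intervals were wide, -1.11 to 0.27 and -0.79 to 0.80.

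Bmp6 (gene ID 12161, chr13:38345716-38500314), known for its part in iron sensing as well as in bone, was as scarce. In DMSO it measured 1.65, 2.72 and 1.48 CPM at 96 h and 1.56, 2.31 and 1.68 CPM at 240 h. In WM-2474 it measured 2.86, 1.26 and 1.71 CPM at 96 h and 1.41, 1.52 and 1.39 CPM at 240 h. The groups overlapped in both arms. The log2 fold change over time was -0.08 ± 0.30 in DMSO (95% interval -0.71 to 0.54; edgeR adjusted p = 0.864) and -0.46 ± 0.33 in WM-2474 (-1.13 to 0.21; adjusted p = 0.311).

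Summed per length, the 3 ligand genes came to 14.3 ± 4.20 RPKM in DMSO at 96 h and 5.79 ± 1.48 RPKM at 240 h, most of it Bmp4. The corresponding sums in WM-2474 were 14.3 ± 4.55 and 6.36 ± 0.392 RPKM.

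Grem1 (gene ID 23892, chr2:113748675-113758648) encodes gremlin 1, which binds BMP2 and BMP4 outside the cell. Its level in DMSO was 287, 230.0 and 237 CPM at 96 h and 286, 256 and 233 CPM at 240 h. The WM-2474 levels were 277, 242 and 249 CPM at 96 h and 272, 250.0 and 248 CPM at 240 h. The groups overlapped, and replicate 1 was the highest in all 4. The log2 fold change over time was 0.03 ± 0.10 in DMSO (95% interval -0.18 to 0.24; edgeR adjusted p = 0.844) and 0.00 ± 0.09 in WM-2474 (-0.21 to 0.21; adjusted p = 0.994). With Bmp4 lower, the ratio of Grem1 to Bmp4 in RPKM was 19.9, 8.33 and 10.7 in DMSO at 96 h and 51.1, 25.2 and 32.0 at 240 h. The ratio in WM-2474 was 21.0, 8.25 and 11.2 at 96 h and 29.9, 26.6 and 31.1 at 240 h. Every library at 240 h thus had more Grem1 RNA per Bmp4 RNA than any library at 96 h, and this ratio follows from the levels already given.

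Id1 (gene ID 15901, chr2:152736251-152737410) is the target gene most often used as a readout of BMP signalling. Its level in DMSO was 85.9, 82.5 and 91.6 CPM at 96 h and 54.9, 54.3 and 45.4 CPM at 240 h. In WM-2474 it was 88.8, 75.6 and 90.3 CPM at 96 h and 48.8, 45.1 and 49.8 CPM at 240 h. The times were well separated in both arms. Id1 fell to 58.3% of its level at 96 h in DMSO (log2 fold change -0.78 ± 0.08, edgeR adjusted p = 3.12e-08) and to 56.2% in WM-2474 (-0.83 ± 0.08, adjusted p = 1.37e-08).

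Id2 (gene ID 15902, chr12:25093799-25096092), whose product also restrains helix-loop-helix factors and binds the retinoblastoma protein, fell the most of the 3. Its level in DMSO was 66.2, 51.9 and 58.2 CPM at 96 h and 28.9, 22.4 and 27.0 CPM at 240 h. With WM-2474 the levels were 59.5, 47.8 and 55.6 CPM at 96 h and 28.6, 22.0 and 24.3 CPM at 240 h. In each of the 4 groups replicate 1 was the highest and replicate 2 the lowest. Id2 fell to 44.5% of its level at 96 h in DMSO (log2 fold change -1.17 ± 0.11, edgeR adjusted p = 9.91e-07) and to 45.5% in WM-2474 (-1.14 ± 0.12, adjusted p = 2.04e-06).

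Id3 (gene ID 15903, chr4:136143822-136145392), the most abundant of the 9, changed less. Its level in DMSO was 256, 269 and 284 CPM at 96 h and 226, 223 and 207 CPM at 240 h. The levels with WM-2474 were 251, 261 and 257 CPM at 96 h and 206, 239 and 205 CPM at 240 h. The times did not overlap in either arm, though the gap was narrow beside that of Id1 and Id2. Id3 fell to 80.9% of its level at 96 h in DMSO (log2 fold change -0.31 ± 0.06, edgeR adjusted p = 0.000104) and to 84.7% in WM-2474 (-0.24 ± 0.06, adjusted p = 0.00150). The 95% intervals of the 3 genes in DMSO were -0.94 to -0.62 for Id1, -1.41 to -0.92 for Id2 and -0.42 to -0.19 for Id3. The sum of the 3 genes, with Id3 its largest part, went from 424 ± 17.3 to 307 ± 16.5 RPKM in DMSO and from 405 ± 9.74 to 300 ± 15.3 RPKM in WM-2474.

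The inhibitory Smad genes parted. Smad6 (gene ID 17130, chr9:63953076-64022085) measured 48.3, 52.0 and 50.8 CPM in DMSO at 96 h and 31.3, 31.1 and 27.8 CPM at 240 h. In WM-2474 it measured 45.8, 45.8 and 45.5 CPM at 96 h and 26.4, 28.0 and 26.2 CPM at 240 h. Libraries of a group lay close together and the times were far apart. Smad6 fell to 58.8% in DMSO (log2 fold change -0.77 ± 0.07, edgeR adjusted p = 1.44e-09) and to 58.9% in WM-2474 (-0.76 ± 0.07, adjusted p = 2.83e-09). Smad7 (gene ID 17131) measured 57.5, 59.1 and 57.6 CPM in DMSO at 96 h and 60.0, 62.3 and 56.4 CPM at 240 h. In WM-2474 it measured 57.1, 54.7 and 58.1 CPM at 96 h and 54.8, 57.8 and 61.4 CPM at 240 h. The groups overlapped, and the log2 fold change was 0.03 ± 0.06 in both arms (95% intervals -0.10 to 0.15 in DMSO and -0.09 to 0.16 in WM-2474; edgeR adjusted p = 0.767 and 0.730). These intervals do not reach the fall measured for Smad6.

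Id1, Id2, Id3 and Smad6 kept their calls in all 22 alternative settings in both arms. Without replicates 1 and 2 of DMSO at 240 h, which leaves 1 library assumed to vary like the other groups, the DMSO log2 fold changes were -0.93 for Id1, -1.13 for Id2, -0.38 for Id3 and -0.85 for Smad6 (edgeR adjusted p 1.87e-07 to 0.00152). In that setting Grem1 stood at -0.11 (adjusted p = 0.542) and Smad7 at -0.04 (adjusted p = 0.783). Exact permutation of 3 against 3 libraries gave a two-sided p of 0.1 for each of the 5 genes that fell, the smallest it allows, so that the calls rest on the spread that edgeR pools over genes and groups.

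**Figure D3:**
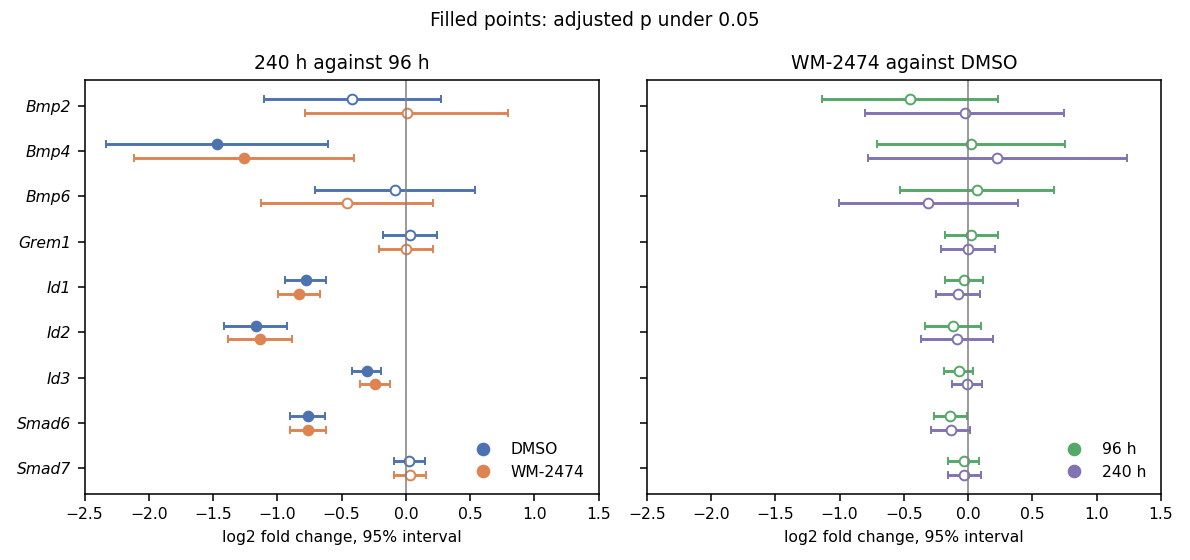
Log2 fold change of each of the 9 genes with its 95% interval, for 240 h against 96 h in each arm and for WM-2474 against DMSO at each time. The 4 genes Id1, Id2, Id3 and Smad6 have short intervals below 0 in both arms, Bmp4 a wide one, and the treatment intervals include 0 except for Smad6 at 96 h.

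The comparison of WM-2474 with DMSO shows what the control compound does to these genes. None of the 9 genes passed the test at 96 h, where 0% of all genes did, or at 240 h, where 0.0296% did (4 genes, all higher). At an unadjusted p under 0.05 edgeR, DESeq2 and limma-voom counted 283, 109 and 403 genes at 96 h and 1099, 697 and 1170 at 240 h. A share near 0.05 of the genes tested would pass this threshold with no difference at all. These 96 h counts lay below that share, and the edgeR and limma-voom counts at 240 h lay above it. The reason was not tested, and such counts, here and below, are not read as effects of the compound. The replicate numbers were taken to pair the libraries at 96 h, though the labels do not say what a number stands for. With that pairing and only the 96 h libraries edgeR counted 846 genes at an unadjusted p under 0.05. Of these, 3 were higher after adjustment, none of them among the 9. The differences of the 9 genes between WM-2474 and DMSO given next are from the fit without this pairing. Adjusted p of the 9 genes was 1.00 at 96 h and 0.655 to 0.999 at 240 h. The median log2 difference over the 9 genes was -0.03 at both times, beside 0.00 over all genes.

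Smad6 came closest. All its libraries in WM-2474 at 96 h lay below those in DMSO, a pattern that 3.83% of all genes showed. The log2 difference was -0.14 ± 0.06 (95% interval -0.27 to -0.01, edgeR adjusted p = 1.00). At 240 h the difference was again -0.14 ± 0.07 (-0.29 to 0.02, adjusted p = 0.655), and the libraries overlapped. Without replicates 1 and 2 of DMSO at 240 h it was -0.05. Bmp6 was the other gene with separate groups, lower in WM-2474 at 240 h as were 6.72% of all genes, with a log2 difference of -0.31 ± 0.34 (adjusted p = 0.841) on few counts.

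For the abundant genes the intervals were narrow. At 96 h they ran from -0.18 to 0.12 for Id1, from -0.34 to 0.10 for Id2, from -0.18 to 0.04 for Id3, from -0.15 to 0.09 for Smad7 and from -0.18 to 0.23 for Grem1. At 240 h they ran from -0.25 to 0.09 for Id1, from -0.36 to 0.19 for Id2, from -0.12 to 0.11 for Id3, from -0.15 to 0.10 for Smad7 and from -0.21 to 0.21 for Grem1. The log2 difference of Bmp4 was 0.02 ± 0.32 at 96 h and 0.23 ± 0.44 at 240 h. That of Bmp2 was -0.45 ± 0.33 and -0.03 ± 0.38. This fit, which leaves out the replicate numbers, measured both too loosely to exclude differences of 1.5 times. Same-numbered Bmp4 libraries at 96 h lay close together. They measured 17.5, 33.6 and 26.8 CPM in DMSO and 16.1, 35.7 and 27.1 CPM in WM-2474. The Bmp4 interval at 96 h thus holds the spread between replicate numbers.

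Whether the change over time differed between the arms was tested directly. The difference between the WM-2474 effects at 240 h and at 96 h passed for none of the 9 genes (edgeR adjusted p 0.977 to 0.999) and for 0% of all genes. At an unadjusted p under 0.05 edgeR, DESeq2 and limma-voom counted 625, 297 and 815 genes for this difference. The estimates were -0.05 ± 0.11 for Id1, 0.03 ± 0.17 for Id2, 0.07 ± 0.08 for Id3 and 0.00 ± 0.10 for Smad6 on the log2 scale. For Bmp4 the difference was 0.21 ± 0.54, with a 95% interval of -1.04 to 1.45.

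Some of the 9 genes differed between the replicate numbers in the same way across groups. The labels give replicate numbers 1 to 3 in each group but do not say what a number stands for. A joint test of the replicate number over the 12 libraries, added after the values of Bmp4, Grem1 and Id2 had been seen, passed for these 3 of the 9 genes and for 1.25% of all genes (169 of 13499). For Bmp4 replicate 2 lay 0.85 and replicate 3 lay 0.49 above replicate 1 on the log2 scale (edgeR adjusted p = 0.00163). Replicate 2 was the highest in all 4 groups, and replicate 1 the lowest in 3 of 4. The summed cartilage and bone markers ran in the order of replicates 1, 3 and 2 from low to high in all 4 groups. They came to 113, 198 and 178 CPM in replicates 1, 2 and 3 of DMSO at 96 h and to 90.3, 115 and 94.99 CPM at 240 h. In WM-2474 they came to 118, 203 and 184 CPM at 96 h and to 75.0, 125 and 114 CPM at 240 h. Their part in the Bmp4 values, by number and by time, was not tested. Grem1 ran the other way, with replicates 2 and 3 at -0.20 and -0.22 against replicate 1 (adjusted p = 0.00309), as did Id2 with -0.35 and -0.15 (adjusted p = 0.00285). Id2 and Bmp2 were the members with the same order of the 3 numbers in all 4 groups, which 1.09% of all genes showed, but Bmp2 did not pass the joint test (adjusted p = 0.666). The other 5 genes, Bmp6, Id1, Id3, Smad6 and Smad7, had adjusted p of 0.836 to 0.996.

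**Figure D4:**
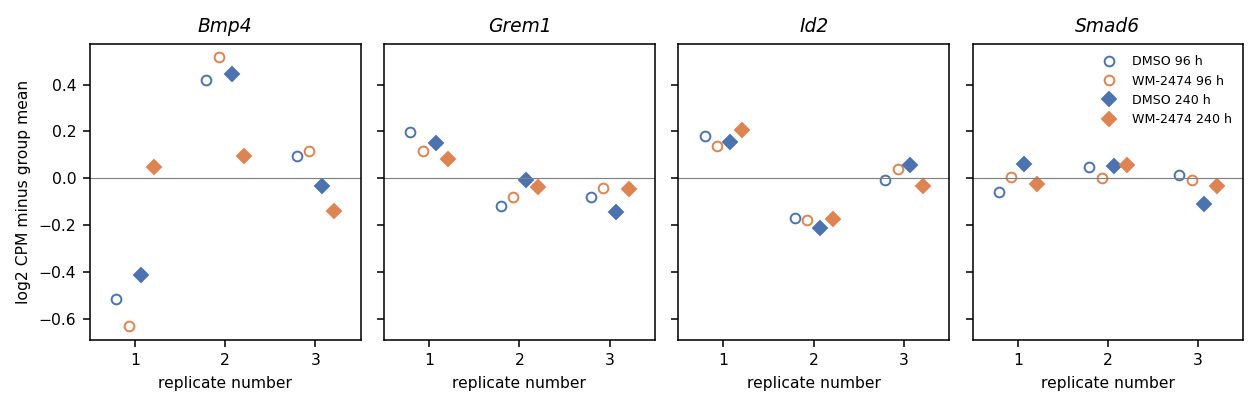
Deviation of each library from its group mean (log2 CPM) by replicate number for Bmp4, Grem1, Id2 and, for comparison, Smad6, with 1 point per library and 4 groups. Replicate 2 is high for Bmp4 and low for Id2 in all groups, and replicate 1 is high for Grem1, while Smad6 points lie near 0.

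The wider pathway was read from a list of 58 other BMP genes, of which 46 were tested. In DMSO 15 of the 46 rose with time and 9 fell, where 17.5% of all genes tested rose and 17.3% fell. In WM-2474 17 rose and 8 fell, where 15.9% of all genes rose and 14.8% fell. The counts that fell were near these shares. The same shares are the background of each role described next, where 1 or 2 calls in a direction are not read as a result. The change over time differed between the arms for none of these genes (edgeR adjusted p), so that a call in 1 arm alone is not a difference between arms. The list's median log2 fold change was 0.08 and 0.09, beside -0.01 and 0.00 over all genes tested. Bmp7, Bmp10, Bmp15, Gdf2, Hjv, Chrdl2, Sost, Sostdc1, Cer1, Tll2, Msx1 and Dlx5 had too few counts to be tested.

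Of 7 other ligand genes tested, 1 rose and 2 fell in DMSO, and 1 rose and 3 fell in WM-2474. Bmp8b rose from 3.02 ± 0.349 to 4.74 ± 0.692 CPM in DMSO (log2 fold change 0.69, edgeR adjusted p = 0.00354) and from 3.15 ± 0.149 to 5.18 ± 0.616 CPM in WM-2474 (0.73, adjusted p = 0.00293). Without DMSO 240 h replicate 3 its DMSO call was lost (adjusted p = 0.0613). Bmp5 fell from 1.85 ± 0.511 to 0.322 ± 0.204 CPM in DMSO and from 2.17 ± 0.112 to 0.518 ± 0.458 CPM in WM-2474, where 1 library held none. Gdf5, a ligand known from joint formation, fell from 1.28 ± 0.747 to 0.146 ± 0.0129 CPM and from 1.55 ± 0.672 to 0.172 ± 0.134 CPM. At 240 h Gdf5 rested on 1 to 4 counts per library, so that no fold is given or drawn for it or for Bmp5.

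Of 11 receptor and coreceptor genes, 5 rose and 2 fell in DMSO, and 5 rose and 1 fell in WM-2474. The type I receptor gene Acvr1 rose by 0.34 and 0.30 on the log2 scale (adjusted p = 5.19e-05 and 0.000230), from 70.1 ± 1.85 to 88.7 ± 1.28 CPM in DMSO. The type II receptor gene Acvr2a rose by 0.48 and 0.52 (adjusted p = 0.000684 and 0.000384). Rgmb, a coreceptor gene, fell by 0.28 in DMSO (adjusted p = 0.00412), a call lost without replicates 1 and 2 of DMSO at 240 h together (-0.19, adjusted p = 0.161). In WM-2474 its log2 fold change was -0.15 (adjusted p = 0.113). Bambi, which encodes a decoy receptor and is itself known as a BMP target, fell by 0.29 in both arms (adjusted p = 0.0259 and 0.0385). That call was lost with DESeq2 in both arms (adjusted p = 0.0728 and 0.0970). In DMSO it was also lost on omitting replicate 1 or 3 at 96 h or at 240 h, and in the compound arm on omitting replicate 1 or 3 at 96 h, or replicate 1 or 2 at 240 h. Adjusted p over all 6 DMSO and 9 WM-2474 settings that lost it was 0.0648 to 0.179 and 0.0528 to 0.179.

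Of 12 other antagonist and modulator genes, 4 rose and 1 fell in DMSO, and 5 rose and 1 fell in WM-2474. Fstl3, a follistatin-like gene, rose from 18.9 ± 1.40 to 29.9 ± 2.38 CPM in DMSO (log2 fold change 0.66, edgeR adjusted p = 2.41e-06) and from 18.5 ± 2.34 to 33.1 ± 1.42 CPM in WM-2474 (0.83, adjusted p = 7.40e-08). Chrd, which encodes chordin, fell by 0.47 in DMSO (adjusted p = 0.0109), a call lost without DMSO 96 h replicate 3 (adjusted p = 0.0567) and without replicates 1 and 2 of DMSO at 240 h together (0.0935). Its log2 fold change in WM-2474 was -0.29 (adjusted p = 0.120). Fst, which encodes follistatin, fell by 0.20 in WM-2474 (adjusted p = 0.0139), a call that ended on omitting replicate 3 of WM-2474 at 96 h (adjusted p = 0.0766) or replicate 2 at 240 h, which left -0.12 (adjusted p = 0.149). In DMSO Fst stood at -0.09 (adjusted p = 0.235).

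Both tested genes of ligand-releasing proteases rose in both arms. Bmp1, a metalloproteinase gene that is not a ligand gene despite its name and whose product cleaves chordin and procollagens, rose from 415 ± 24.7 to 535 ± 20.4 CPM in DMSO (log2 fold change 0.37, edgeR adjusted p = 6.90e-06) and from 417 ± 21.3 to 589 ± 41.2 CPM in WM-2474 (0.50, adjusted p = 6.32e-08). Tll1 rose by 0.65 and 0.49 (adjusted p = 0.00931 and 0.0397). The WM-2474 call of Tll1 was fragile: 12 settings lost it, among them the omission of any DMSO 96 h library, of any WM-2474 96 h library, of DMSO 240 h replicate 3 or of WM-2474 240 h replicates 2 or 3 (adjusted p 0.0523 to 0.132). Its DMSO call was lost without replicates 1 and 2 of DMSO at 240 h together (adjusted p = 0.0526).

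Of 8 genes for Smads and their regulators, 2 rose and 2 fell in DMSO, and 3 rose and 1 fell in WM-2474. Smad9, a receptor-activated Smad gene and itself a known BMP target, fell from 12.4 ± 1.08 to 7.20 ± 1.15 CPM in DMSO (log2 fold change -0.84, edgeR adjusted p = 3.15e-05) and from 12.6 ± 1.48 to 6.90 ± 1.09 CPM in WM-2474 (-0.85, adjusted p = 3.81e-05). Smad1 fell by 0.35 in DMSO (adjusted p = 0.000253) and stood at -0.15 in WM-2474 (adjusted p = 0.0999). Smurf1, which encodes a ubiquitin ligase for Smads, rose by 0.29 and 0.28 (adjusted p = 0.000349 and 0.000604). With library totals its change in WM-2474 was 0.14 (adjusted p = 0.0568). Skil, which encodes a Smad corepressor, rose by 0.55 and 0.36 (adjusted p = 0.00209 and 0.0269). Its WM-2474 call was lost with library totals (0.23, adjusted p = 0.117) and without replicate 2 or 3 of WM-2474 at 96 h or at 240 h (adjusted p 0.0775 to 0.105).

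Of 6 other genes known as BMP targets, 1 rose and 2 fell in each arm. Hey1, a target of Notch as well as of BMP, rose from 0.786 ± 0.169 to 3.45 ± 0.678 CPM in DMSO (log2 fold change 2.07, edgeR adjusted p = 1.49e-05) and from 1.05 ± 0.439 to 2.28 ± 0.767 CPM in WM-2474 (1.12, adjusted p = 0.0106). Its call in the compound arm ended when replicate 2 of WM-2474 at 96 h (0.89, adjusted p = 0.0594) or at 240 h (0.77, adjusted p = 0.155) was omitted. Atoh8 fell by 0.44 and 0.50 (adjusted p = 0.000325 and 0.000103). Sp7, the osteoblast factor osterix, fell by 0.88 in DMSO (adjusted p = 0.0199) at 2.13 ± 0.265 and 1.14 ± 0.305 CPM. Its call was lost without DMSO 96 h replicate 3, without DMSO 240 h replicate 2 or 3, without replicates 1 and 2 of that group together and with DESeq2 (adjusted p 0.0662 to 0.102). In WM-2474 Sp7 stood at -0.81 (adjusted p = 0.0514). Runx2 fell by 0.22 in WM-2474 (adjusted p = 0.0103), a call lost without WM-2474 96 h replicate 2 (adjusted p = 0.0601), and stood at -0.10 in DMSO (adjusted p = 0.246). Id4, the fourth Id gene, measured 64.5 ± 4.84 and 68.0 ± 4.57 CPM in DMSO at 96 h and 240 h and did not pass the test, unlike Id1, Id2 and Id3. No gene of the list passed a comparison of WM-2474 with DMSO. The smallest p belonged to Runx2 at 96 h, with a log2 difference of 0.22 (adjusted p = 1.00), and to Gdf7 at 240 h, with -1.18 (adjusted p = 0.521). The Gdf7 value rested on few counts, 3, 6 and 27 in replicates 1, 2 and 3 of DMSO and 5, 4 and 3 in those of WM-2474.

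**Figure D5:**
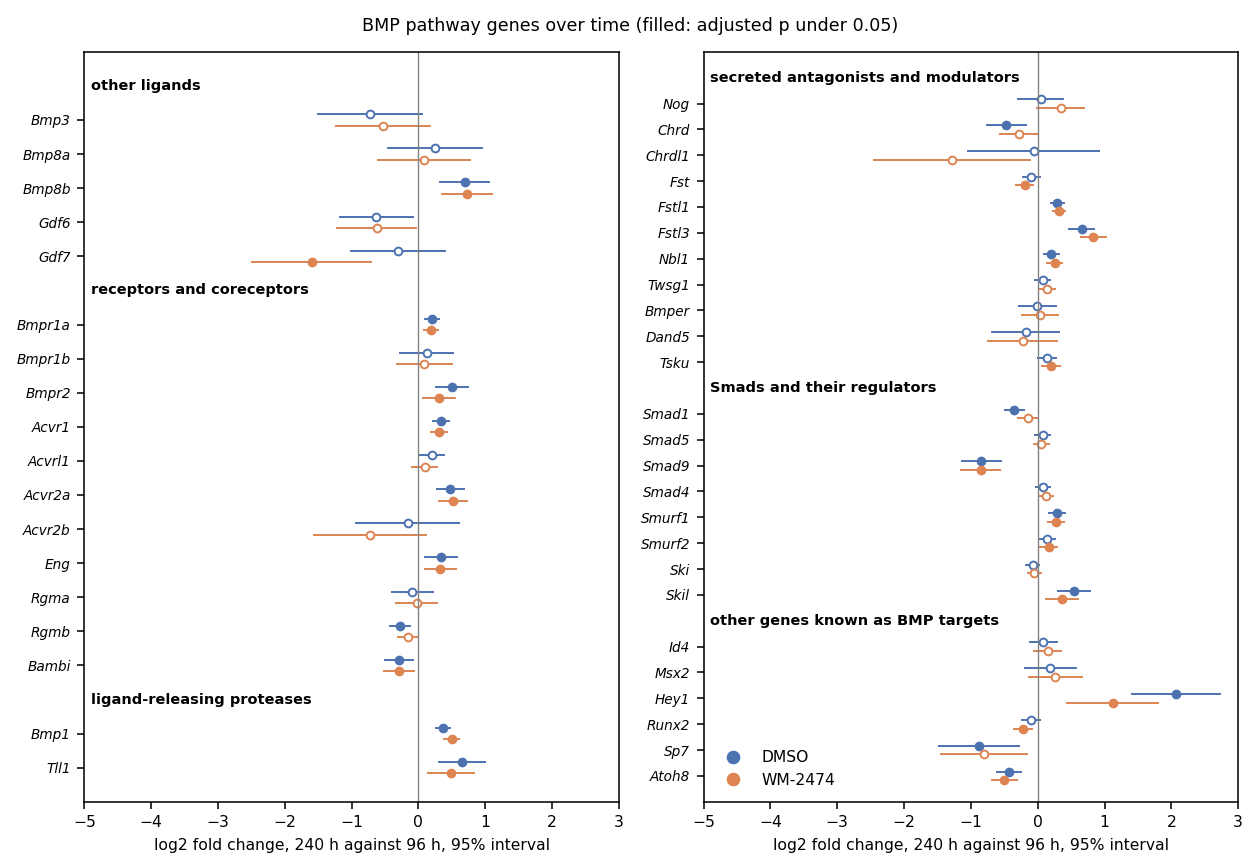
Log2 fold change of 240 h against 96 h with its 95% interval for tested genes of the wider pathway, by role, with 1 gene and the scarce Bmp5 and Gdf5 left out, in DMSO and WM-2474 (filled points: edgeR adjusted p under 0.05). Fstl3, Bmp1 and Hey1 lie above 0 and Smad9 and Atoh8 below 0 in both arms.

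The genes whose log2 CPM pattern over the 12 libraries was most like that of a member were found by the root mean square difference between centred values, over 12772 candidate genes. The likeness is a description over libraries that share time and scaling. For Id1 they were Krt19 (0.0880), Cgnl1 (0.0899) and Idh1 (0.0968), beside a median of 0.428 over all candidates. For Bmp4 they were Foxc1 (0.159), Mest (0.205) and Ndnf (0.213), beside a median of 0.767. For Grem1 they were Emilin2 (0.0579), Dpy19l1 (0.0593) and N6amt1 (0.0604), beside a median of 0.179, which is itself small because Grem1 varied little.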

How the data were processed

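Poly(A) RNA libraries of 12 fibroblast cultures were made with a stranded mRNA kit, per the labels' protocols. The authors deposited raw counts per gene with exon lengths, made with featureCounts on mm10 per the submitters' processing notes. The aligner, versions, annotation and strand setting are not given in the sources used here. Genes overlapping another gene are therefore uncertain. Of 27179 entries, 874 without identifier (0.547 to 0.648% of counts) were left out, and 25275 of 26305 identifiers (96.1%) were named from RefSeq GRCm38.p6.

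Genes were filtered with filterByExpr and scaled with TMM (factors of 1.04 to 1.05 at 96 h and 0.943 to 0.967 at 240 h). edgeR 4.0.16 (R 4.3.3) fitted all libraries with 1 coefficient per group, and its quasi-likelihood test gave two-sided p-values, adjusted by Benjamini-Hochberg within each comparison over 13499 genes with a threshold of 0.05. The common biological variation was 5.22%. CPM and RPKM were computed from the counts with TMM-scaled library sizes and, for RPKM, the deposited exon lengths. Values after ± are SD of 3 libraries for levels and SE for log2 fold changes. Intervals are 95% intervals of the fit, and the 3-count floor covers counting error only. No replicates were near-identical: chi-square divided by its degrees of freedom was 2.05 to 5.25.

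The members, gene lists, marker lists and naming rule were chosen with earlier results of these data known, so that list counts carry no test. Named were the 9 members and, of each role in the pathway list and each change over time, up to 2 higher and 2 lower genes with the smallest p among those that passed. In treatment comparisons it was the gene with the smallest p, and for likeness the 3 nearest genes with at least 1 CPM on average. Of the genes this rule names, 1 is not reported here. Replicate numbers were taken to pair libraries where the deviations of all 3 same-numbered pairs correlated above 0.1. This held between the arms at 96 h (0.337, 0.258 and 0.204). Alternatives were RLE factors, library totals, no filter, over 1 CPM in 3 libraries, DESeq2 1.42.0, limma 3.58.1 (voom with quality weights), the replicate block, fewer libraries and each library left out. Figures used matplotlib 3.10.9 in Python 3.11.15 with pandas 2.3.3.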

Additional observations from a re-analysis of the deposited data

How the results depend on the processing

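No called change of a gene named here changed sign in any setting, and 58 pairs of gene and setting lost a call. Of 38 uncalled pairs of gene and comparison, 24 changed sign in at least 1 setting, among them Grem1 and Smad7 over time. The number of the 9 genes that fell stayed at 4 or 5 in each arm. In DMSO the log2 range over settings was -0.93 to -0.67 for Id1, -1.29 to -1.07 for Id2, -0.43 to -0.26 for Id3, -0.89 to -0.69 for Smad6 and -1.71 to -1.25 for Bmp4. In WM-2474 it was -0.97 to -0.78, -1.27 to -1.04, -0.37 to -0.20, -0.90 to -0.75 and -1.54 to -0.98.

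Counts over all genes moved by more than 1.5 times as follows, and the cause was not tested beyond the construction of each setting. With library totals, 1190 genes rose and 4381 fell over time in DMSO, and 1097 rose and 4391 fell in WM-2474. Without replicates 1 and 2 of DMSO at 240 h together, 1489 rose and 1374 fell in DMSO and 0 were higher in WM-2474 at 240 h. The 4 genes higher in WM-2474 at 240 h became 39, with 8 lower, without the filter, which also gave 2 higher for the difference between times. They became 11 with DESeq2, which gave adjusted p for 3292 genes there, 2 with limma-voom and 15 with only the libraries compared. Leaving out 1 library gave 0 to 11 higher and 0 to 12 lower at 240 h, with the 12 lower found without DMSO 240 h replicate 3. Without DMSO 240 h replicate 1 or 2, or WM-2474 240 h replicate 1 or 2, 0 were higher.

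The replicate block gave 7 higher at 240 h. With the block and only the libraries compared, 3 were higher at 96 h, and 79 were higher and 12 lower at 240 h. Same-numbered libraries correlated at 0.114, 0.130 and 0.0443 between the arms at 240 h, and between the times at 0.0513, 0.0935 and 0.140 in DMSO and -0.0312, 0.0662 and 0.0618 in WM-2474, so that in none of these 3 comparisons did all pairs exceed 0.1. With the block and only the libraries compared, Bambi lost its call in WM-2474 (adjusted p = 0.0930), and no other change over time named here lost a call under either block. Depth limits Bmp2 and Bmp6, with 4 to 26 and 11 to 43 counts per library.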
